A study of Mus musculus with 8 samples.

Results

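Intercalated cells are the acid-base cells of the connecting tubule and collecting duct. Type A cells secrete acid through a proton pump, the vacuolar ATPase, in the luminal membrane and return bicarbonate to the blood through the anion exchanger encoded by Slc4a1, while type B cells secrete bicarbonate through the exchanger pendrin, encoded by Slc26a4. The transcription factor Foxi1 is needed for both to form. The distal convoluted tubule (DCT), the nephron segment just upstream, is built mainly of cells that reabsorb sodium chloride, and its late part and the connecting tubule next to it hold intercalated cells. Here 10 genes of intercalated cells were followed in sorted DCT: 4 subunits of the vacuolar ATPase (Atp6v1b1, Atp6v1g3, Atp6v0d2 and Atp6v0a4), 3 anion exchangers (Slc4a1, Slc26a4 and Slc4a9), the water channel homologue Aqp6, the ammonia channel Rhcg and Foxi1. Each gene was read from its brightest probe set paired with exactly 1 gene symbol. By this rule 9 of the 10 were measured, among 18782 genes in all. Both probe sets for Atp6v0a4 also carry the symbol of another gene, so no value is given for it.

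The data were 8 arrays, 4 of TBC1D4-deficient and 4 of wild-type mice, all male C57/Bl6 animals aged 8 weeks. Mice of both genotypes carried 1 copy of a transgene with EGFP under the parvalbumin promoter, which is active in the early DCT, and COPAS, a flow sorter for large objects, picked out the green tubules. TBC1D4 is a Rab GTPase-activating protein that controls glucose transporter vesicles, and the series title names compensation for its loss in the DCT as the question. Nothing in the labels ties each sample to 1 mouse, and every p-value below therefore reflects only how far these 8 samples scatter. Because whole tubules were sorted, fewer cells of a type and less RNA per cell cannot be told apart.

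Values are log2 intensities of the deposited probe set table, and the number of arrays limits the precision. The gene targeted in the mutants matched the labels, with Tbc1d4 at 2.48 ± 0.21 in TBC1D4-deficient and 6.75 ± 0.15 in wild-type arrays (SD, n = 4 each). Slc12a3, the sodium chloride cotransporter that defines the DCT, stood at 11.47 to 11.51 in TBC1D4-deficient and 11.45 to 11.56 in wild-type arrays. Genes listed for other nephron segments were bright too. The brightest averaged 11.12 over the 8 arrays for thick ascending limb and 9.60 for proximal tubule. The summed intensity of proximal tubule genes was 2057 to 5040 in TBC1D4-deficient and 2859 to 6594 in wild-type arrays. Purity of the sort was not tested. In some of the genes described here, Slc4a1 and Aqp6 above all, 3 arrays stood apart, namely TBC1D4-deficient replicate 2 and wild-type replicates 1 and 3. The sample descriptions carry an identifier number of unstated meaning, which falls in a higher range for these 3 arrays and wild-type replicate 4 and in a lower range for the other 4 arrays. Genotype differences of the intercalated cell genes are therefore also given with that identifier range in the same fit. The genotypes are unevenly spread over the ranges (1 of 4 TBC1D4-deficient arrays and 3 of 4 wild-type arrays lie in the higher one), so both effects cannot be fully separated.

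None of the 9 genes passed the test between genotypes. In a limma fit over 23039 probe sets, 0 of 9 had an adjusted p below 0.05 (0.9999 for each), where 0.00434% of all probe sets passed, which was Tbc1d4 alone. At an unadjusted p below 0.05 there were 2 of 9, Atp6v0d2 and Atp6v1b1, against 2.9% of all probe sets. The genotypes overlapped in all 9 genes, and they did not overlap in 1.85% of all probe sets. The differences lay between -0.56 and 0.13 with a median of -0.13, beside a median of -0.00074 over all genes, and 6 of the 9 intervals lay inside 1.5-fold. With the identifier range in the fit the median was 0.04. Means were lower in TBC1D4-deficient arrays in 6 of the 9 genes, beside 9459 of all 18782 genes. They were also lower in 20 of 20 proximal tubule genes (median difference -0.27), 13 of 13 endothelial genes (-0.27) and 10 of 10 principal cell genes (-0.16). In each of these 3 lists 0 passed the limma test, and 0, 8 and 1 had an unadjusted p below 0.05. With the identifier range in the fit these medians were -0.04 for proximal tubule, -0.20 for endothelial and -0.07 for principal cell genes. Their part in the differences of the 9 genes was not tested.

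**Figure D1:**
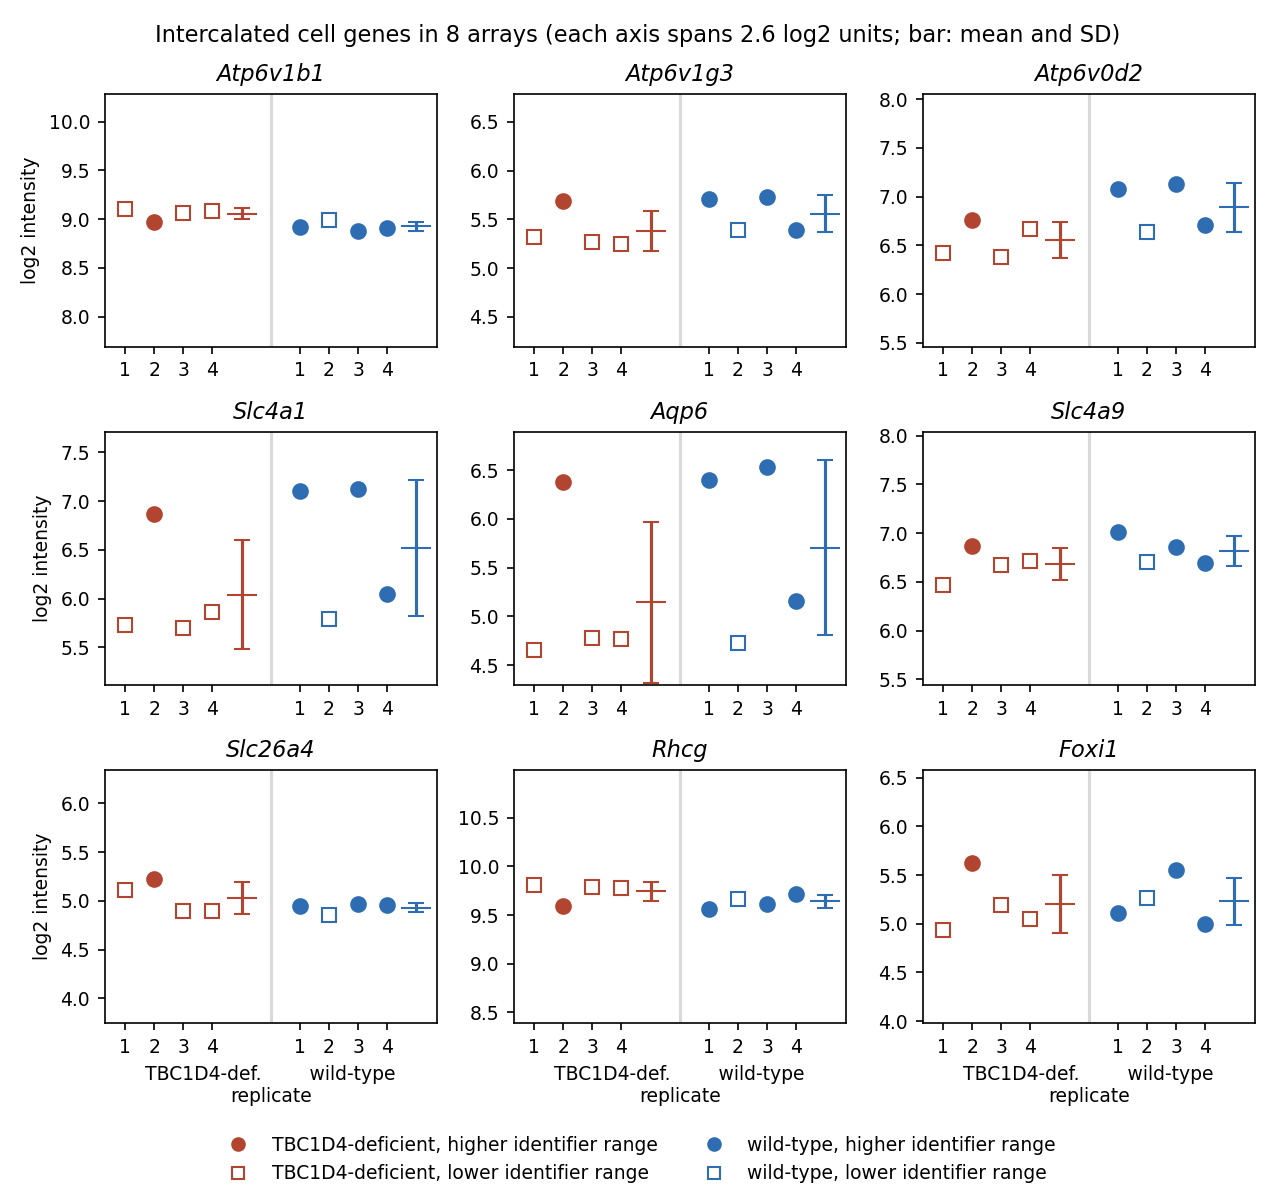
Log2 intensity (y axis) of the 9 measured genes in each of 8 arrays (x axis, TBC1D4-deficient in red, wild-type in blue), with the mean and SD of each genotype as a bar beside the points; filled circles are arrays of the higher identifier range and open squares those of the lower. Every panel spans the same height, so Slc4a1 and Aqp6 can be seen to reach 6.87 or more and 6.38 or more in 3 arrays, while Atp6v1b1 and Rhcg spread over 0.22 and 0.24.

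Slc4a1 and Aqp6, both products of type A cells, were the genes that varied most. Slc4a1 (probe set 10391649, chromosome 11) encodes the basolateral chloride-bicarbonate exchanger of type A cells, known as band 3 in red blood cells. It stood at 5.73, 6.87, 5.70 and 5.86 in TBC1D4-deficient replicates 1 to 4, against 7.10, 5.79, 7.13 and 6.04 in wild-type replicates 1 to 4. The 3 arrays named above were high in this gene and the other 5 low, with an empty gap of 0.82 between them, so each genotype held arrays of both kinds. The mean was 6.04 ± 0.56 in TBC1D4-deficient and 6.52 ± 0.70 in wild-type arrays (SD, n = 4 each), and the difference of -0.48 (SE 0.35, 95% interval -1.25 to 0.30) was smaller than either SD. An exact permutation test over the 70 assignments of arrays gave p = 0.2. With the identifier range in the fit the difference turned to 0.04 (-0.51 to 0.60).

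Aqp6 (probe set 10426773, chromosome 15), a water channel homologue that lies in intracellular vesicles of type A cells, had the same 4 highest arrays. It stood at 4.65, 6.38, 4.78 and 4.77 in TBC1D4-deficient replicates 1 to 4 and at 6.40, 4.73, 6.54 and 5.16 in wild-type replicates 1 to 4. The highest array was 3.69-fold above the lowest, and the gap below the 3 high arrays was 1.22. The mean was 5.15 ± 0.82 in TBC1D4-deficient and 5.71 ± 0.90 in wild-type arrays (SD, n = 4 each), a difference of -0.56 (SE 0.47, 95% interval -1.61 to 0.49) with an exact permutation p of 0.286. It was 0.18 (-0.50 to 0.86) with the identifier range in the fit. Without the 3 high arrays, a choice made after their values were seen, it was -0.21 (-0.53 to 0.11), and that of Slc4a1 was -0.15 (-0.41 to 0.10).

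Of 9391 genes above the median level, 70 (0.745%) spread over the 8 arrays as widely as Aqp6, by 1.88, and 164 (1.75%) as widely as Slc4a1, by 1.43, where the median spread was 0.33. The measured markers of red blood cells, which also make Slc4a1, were dim. Of 13 listed erythroid genes 7 were measured, all below the median level of genes. Their summed intensity was 36.1, 38.7, 39.5 and 41.8 in TBC1D4-deficient arrays and 38.5, 42.4, 38.0 and 36.2 in wild-type arrays. Alas2, which starts haem synthesis in red cell precursors, stood at 2.32, 2.40, 2.43 and 2.39 in TBC1D4-deficient arrays and at 2.32, 2.59, 2.40 and 2.26 in wild-type arrays. The globin genes Hba-a1, Hba-a2, Hbb-bs and Hbb-bt were not analysed here, and the part of red cells in the values of Slc4a1 was not tested.

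Among the measured vacuolar ATPase subunits, Atp6v1g3 and Atp6v0d2 were highest in the 3 arrays with high Slc4a1. They spread over the 8 arrays by 0.48 and 0.75, and Atp6v1b1 by 0.22. Atp6v1b1 (probe set 10539449, chromosome 6), the kidney isoform of the B subunit in the ATP-hydrolysing head of the pump, stood at 9.10, 8.97, 9.06 and 9.09 in TBC1D4-deficient arrays against 8.92, 8.99, 8.88 and 8.91 in wild-type arrays. All 3 other TBC1D4-deficient arrays lay above every wild-type array, but replicate 2 lay below wild-type replicate 2. The mean was 9.06 ± 0.06 in TBC1D4-deficient and 8.92 ± 0.05 in wild-type arrays (SD, n = 4 each). The difference of 0.13 (SE 0.06, 95% interval 0.0016 to 0.26) did not pass (limma adjusted p = 0.9999; exact permutation p = 0.0571). With the identifier range in the fit it was 0.08 (-0.06 to 0.23).

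Atp6v1g3 (probe set 10350343, chromosome 1), the kidney isoform of the G subunit in the stalk of the pump, stood at 5.31, 5.69, 5.27 and 5.25 in TBC1D4-deficient arrays, against 5.71, 5.39, 5.73 and 5.40 in wild-type arrays. The same 3 arrays were the highest and were separated from the rest by 0.29, which is 61.3% of the whole spread. The difference was -0.18 (-0.44 to 0.09), and -0.02 (-0.25 to 0.21) with the identifier range. Atp6v0d2 (probe set 10511779, chromosome 4), a subunit of the membrane part of the pump that macrophages and osteoclasts also use, stood at 6.42, 6.76, 6.39 and 6.67 in TBC1D4-deficient arrays and at 7.08, 6.64, 7.13 and 6.71 in wild-type arrays. Here wild-type replicates 1 and 3 were highest, with TBC1D4-deficient replicate 2 next and close to the rest. The difference of -0.33 (SE 0.13, 95% interval -0.62 to -0.04), 1.26-fold lower, had the smallest unadjusted p of the 9 genes (0.0298; limma adjusted p = 0.9999; exact permutation p = 0.143). It was -0.18 (-0.45 to 0.10) with the identifier range in the fit, and -0.14 and -0.21 within the lower and the higher range, where 1 genotype has a single array that is assumed to vary like the rest. Of the 12 listed macrophage and osteoclast genes, 11 were below the median level of genes. Their summed intensity was 92.6, 108.6, 85.7 and 89.0 in TBC1D4-deficient replicates 1 to 4. It was 95.4, 88.1, 97.5 and 88.4 in wild-type replicates 1 to 4. TBC1D4-deficient replicate 2 and wild-type replicates 1 and 3 were thus highest in this sum, but in only 1 of the 12 genes taken singly. In the mean of these genes, each centred on its mean over 8 arrays, wild-type replicate 1 (-0.012) lay below TBC1D4-deficient replicate 4 (-0.0019). The part of such cells in the values of Atp6v0d2 was not tested.

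The forkhead factor Foxi1 is known to act on the promoter of Atp6v1b1, so the 250 bases upstream of the transcript start are shown for that gene, for the pump subunit Atp6v1g3 that varied between arrays, and for Rhcg, which like Atp6v1b1 hardly varied. The sequences are RefSeq's (GRCm38.p6), 5′ to 3′ on the strand of the gene, and capitals mark matches to the forkhead letters TGTTTA or GTAAACA on either strand, which overlap where both occur.
Atp6v1b1 (chr6:83742767-83743016, plus strand): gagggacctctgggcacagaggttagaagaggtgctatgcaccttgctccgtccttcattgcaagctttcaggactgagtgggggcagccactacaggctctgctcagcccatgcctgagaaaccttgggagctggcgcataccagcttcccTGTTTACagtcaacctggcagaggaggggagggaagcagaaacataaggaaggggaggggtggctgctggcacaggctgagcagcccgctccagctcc
Atp6v1g3 (chr1:138273488-138273737, plus strand): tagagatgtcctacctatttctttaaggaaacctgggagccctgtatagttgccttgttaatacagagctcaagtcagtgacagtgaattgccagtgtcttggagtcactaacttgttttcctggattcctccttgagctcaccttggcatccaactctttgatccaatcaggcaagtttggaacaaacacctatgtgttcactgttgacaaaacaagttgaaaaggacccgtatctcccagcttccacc
Rhcg (chr7:79617658-79617907, minus strand): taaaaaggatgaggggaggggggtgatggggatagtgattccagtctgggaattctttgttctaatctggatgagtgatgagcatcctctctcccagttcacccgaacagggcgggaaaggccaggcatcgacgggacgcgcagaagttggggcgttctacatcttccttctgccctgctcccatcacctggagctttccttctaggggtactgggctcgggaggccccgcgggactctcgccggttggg

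Atp6v1b1 holds a match that begins 98 bases upstream of its start and reads TGTTTAC, which contains the shorter motif on the plus strand and the longer one on the minus strand. It was the only one of 7 genes of the list with a window in the table to hold either motif. The 7 include Atp6v0a4, which was not measured. The window of Aqp6 does not lie at the gene's start in RefSeq (offset -2731 bases), and that of Slc26a4 is off by less (-70). Over all 32851 promoter windows of this length, 12.03% held the shorter motif and 3.17% the longer one. A match describes letters in the window and is not a measured binding site.

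Genes of type B cells varied less than Slc4a1 and Aqp6. Slc26a4 (pendrin; probe set 10399854, chromosome 12) stood at 5.11, 5.23, 4.89 and 4.90 in TBC1D4-deficient arrays and at 4.94, 4.86, 4.96 and 4.96 in wild-type arrays. TBC1D4-deficient replicates 1 and 2 were the highest, and the other 6 arrays lay between 4.86 and 4.96. The difference was 0.10 (-0.09 to 0.29), and 0.19 (0.0022 to 0.38) with the identifier range (limma adjusted p = 0.9994). Slc4a9 (probe set 10454885), a basolateral exchanger of type B cells in the mouse, stood at 6.47, 6.86, 6.68 and 6.72 in TBC1D4-deficient arrays and at 7.01, 6.70, 6.86 and 6.69 in wild-type arrays. The same 3 arrays that were high in Slc4a1 were its highest, over a spread of 0.54. The difference was -0.13 (-0.36 to 0.09), and -0.04 (-0.27 to 0.19) with the identifier range.

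Rhcg (probe set 10564762, chromosome 7), an ammonia channel of intercalated cells that other cells of the distal nephron also make, was steady and ran the other way. It stood at 9.81, 9.60, 9.78 and 9.77 in TBC1D4-deficient arrays and at 9.57, 9.67, 9.62 and 9.72 in wild-type arrays, so that the 3 arrays with high Slc4a1 were its lowest. The difference was 0.10 (-0.05 to 0.25), and 0.04 (-0.13 to 0.21) with the identifier range. Foxi1 (probe set 10385114, chromosome 11) stood at 4.94, 5.62, 5.20 and 5.05 in TBC1D4-deficient arrays and at 5.11, 5.26, 5.55 and 4.99 in wild-type arrays. TBC1D4-deficient replicate 2 and wild-type replicate 3 were highest, while wild-type replicate 1 was not raised. Its difference of -0.03 (-0.38 to 0.32) was the smallest of the 9, and turned to 0.10 (-0.28 to 0.48) with the identifier range.

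**Figure D2:**
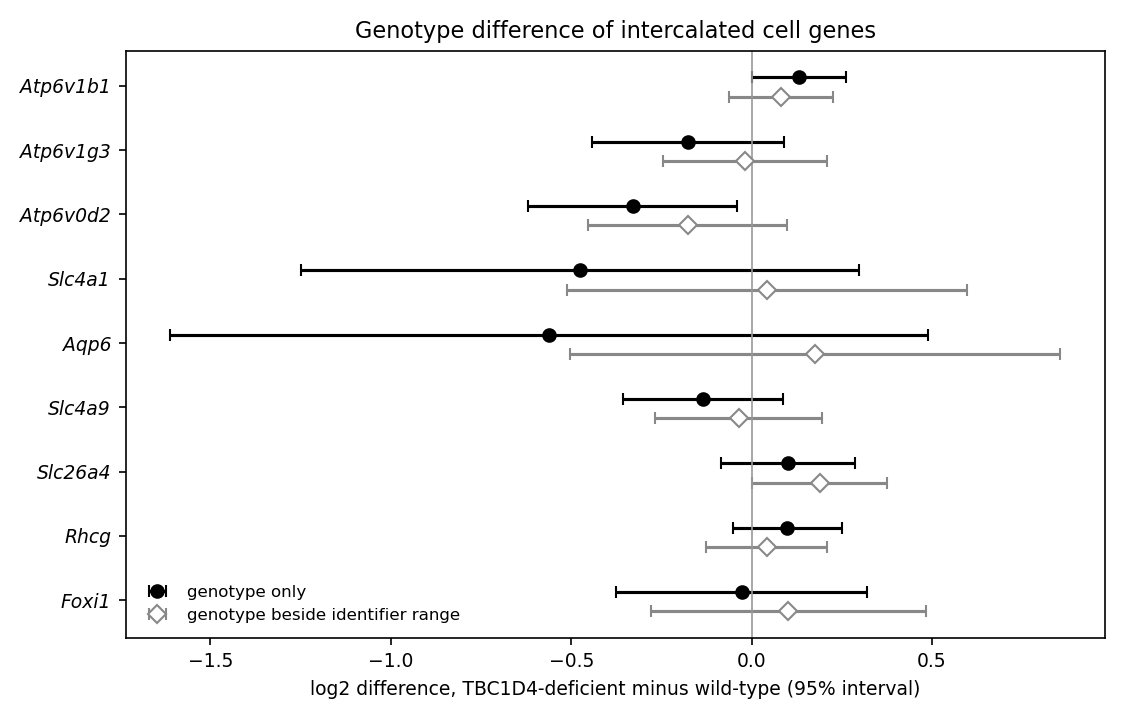
Log2 difference of TBC1D4-deficient minus wild-type (x axis) with its 95% interval for the 9 genes (y axis), from the limma fit with genotype alone (filled circles) and with the identifier range beside genotype (open diamonds). The points of Slc4a1 and Aqp6 move from -0.48 and -0.56 to 0.04 and 0.18, and all 9 genes have an adjusted p near 1 in both fits.

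The same 3 arrays were the highest of all 8 in 5 of the 9 genes (Slc4a1, Aqp6, Atp6v1g3, Atp6v0d2 and Slc4a9), against 2.14% of all probe sets, and the lowest in 1, Rhcg, against 1.95%. This count was made after the values had been seen. Slc4a1 and Aqp6 had singled these arrays out, so they meet it by construction and the count is a description with no test. The arrays of the higher identifier range were also compared with those of the lower beside genotype, again after the members' values were seen. In that limma comparison 0 of 9 genes passed, as did 0% of all probe sets, and 4 of 9 had an unadjusted p below 0.05 (4.9% of all probe sets). Slc4a1 differed by 1.04 (95% interval 0.48 to 1.59, limma adjusted p = 0.988) and Aqp6 by 1.47 (0.80 to 2.15, limma adjusted p = 0.988). Without wild-type replicate 4, the lowest array of the higher range in both genes, the differences were 1.21 and 1.69. The arrays then left in that range are the 3 already singled out by these genes, so these values are a description with no test. Atp6v1g3 and Atp6v0d2 differed by 0.32 and 0.30. Without overlap, 4 of 9 were higher in the arrays of the higher range (1.52% of all probe sets), and 1, Atp6v1b1, was lower (1.26%). Proximal tubule genes also stood higher in that range, 19 of 20 with a median of 0.48 and 0 past the limma test, 5 at an unadjusted p below 0.05, and their part was not tested.

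In Slc4a1, Aqp6 and Atp6v1g3 an empty gap of more than 50% of the spread divided the arrays into separate clusters, each too small for a correlation. The other 6 genes gave 15 pairs, of which 4 passed at an adjusted p below 0.05 over 8 arrays (exact permutation tests of Pearson's r, 2-sided, Benjamini-Hochberg over 15 pairs). Slc4a9 and Rhcg had r = -0.90 (adjusted p = 0.0141) and Spearman's rho = -0.93 (adjusted p = 0.0335; exact permutation tests), and r = -0.85 without the 2 arrays farthest from the median of Slc4a9. Atp6v0d2 had r = 0.84 with Slc4a9 and -0.84 with Rhcg (exact permutation adjusted p = 0.0441 for both), and r = -0.83 with Atp6v1b1 (exact permutation adjusted p = 0.045), with rho of 0.83, -0.83 and -0.81 that did not pass after adjustment. Without the 2 arrays farthest from the median of Atp6v0d2 these were 0.73, -0.75 and -0.68. Only 1 of the 15 pairs passed after each genotype's mean was subtracted. The plan had been to adjust over the pairs of all members, and genes were left out for gaps seen in these values. The arrays high in Slc4a1 and Aqp6 were still the highest in Slc4a9 and Atp6v0d2 and the lowest in Rhcg. The pairs among these genes are therefore not independent of that split. Neither the sets of arrays whose descriptions open with 5 to 8 and 9 to 12 nor the identifier ranges hold enough arrays for a value within them.

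Other genes of intercalated cells and the rest of the proton pump were read from lists. Of 20 further intercalated cell genes 8 were higher and 12 lower in TBC1D4-deficient arrays and 0 passed, with a median difference of -0.05. Adgrf5, an adhesion receptor of type A cells, stood at 5.08, 6.27, 5.35 and 5.17 in TBC1D4-deficient arrays and at 6.47, 5.53, 6.33 and 5.57 in wild-type arrays. The 3 arrays that were high in Slc4a1 were again the highest. Its difference was -0.51 (-1.15 to 0.14), and -0.09 (-0.58 to 0.40) with the identifier range in the fit. Car2, the cytosolic carbonic anhydrase that feeds the pump with protons, averaged 6.63 ± 0.27 in TBC1D4-deficient and 6.89 ± 0.29 in wild-type arrays (SD, n = 4 each), a difference of -0.26 (-0.62 to 0.09), and -0.05 (-0.36 to 0.25) with the identifier range. Car12, a membrane-bound carbonic anhydrase, differed by -0.23 (-0.53 to 0.07), and by -0.05 (-0.30 to 0.21) with the identifier range. The transcription factor Dmrt2 differed by -0.30 (-0.60 to 0.0067), with wild-type replicate 1 at 4.62 and the other 7 arrays at 3.69 to 4.12, and by -0.17 (-0.49 to 0.15) with the identifier range.

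Rhbg, the basolateral ammonium transporter of these cells, and the receptor kinase Kit were picked after their values were seen. Rhbg stood at 5.50, 6.16, 5.37 and 5.83 in TBC1D4-deficient arrays and at 6.24, 5.41, 6.39 and 5.81 in wild-type arrays. Kit stood at 4.52, 5.27, 4.53 and 4.55 in TBC1D4-deficient arrays and at 5.17, 4.73, 4.97 and 4.79 in wild-type arrays. In both genes the highest arrays were again TBC1D4-deficient replicate 2 and wild-type replicates 1 and 3. These were the 3 highest arrays in 4 of the 20 genes (Adgrf5, Rhbg, Kit and the pump subunit Atp6v1c2), against 2.14% of all probe sets, and the 3 lowest in 1, against 1.95%. That gene was Jag1, a Notch ligand, at 6.03, 5.53, 5.86 and 5.78 in TBC1D4-deficient arrays and at 5.60, 5.74, 5.68 and 6.16 in wild-type arrays. Pearson's r with the members' mean over the 8 arrays, given as a description, ran from 0.97 for Adgrf5 to -0.71 for Jag1, and was also below 0 for P2ry14 (-0.66), Tfcp2l1 (-0.44), Oxgr1 (-0.42), Insrr (-0.30) and Slc4a8 (-0.14).

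**Figure D3:**
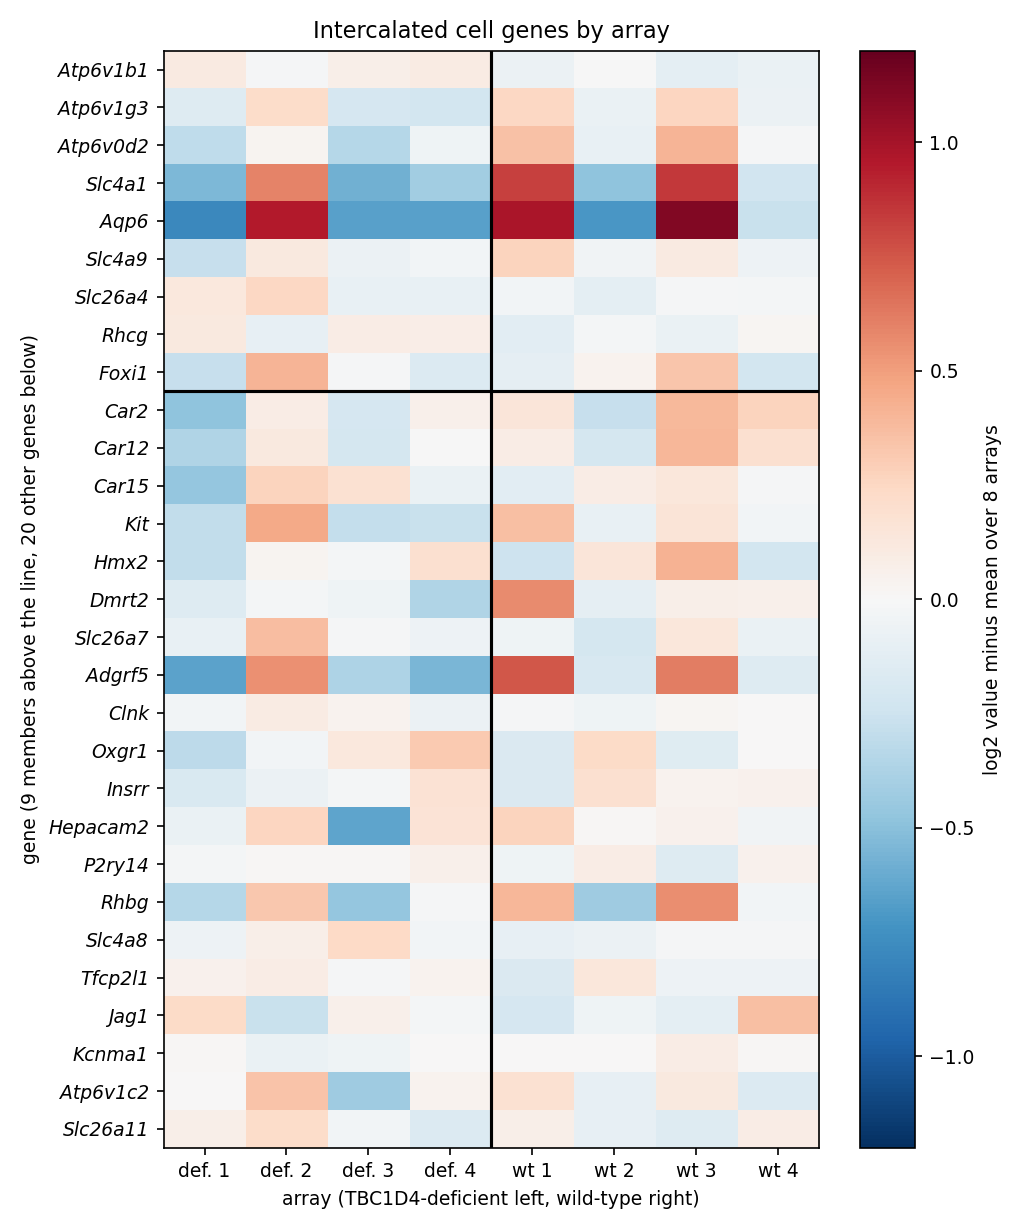
Log2 value minus the gene's mean over 8 arrays (colour) for the 9 members (above the line) and 20 further intercalated cell genes (below), by array (x axis, TBC1D4-deficient left of wild-type). TBC1D4-deficient replicate 2 and wild-type replicates 1 and 3 are red in Slc4a1, Aqp6, Adgrf5, Rhbg and Kit.

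The subunits of the vacuolar ATPase that most cells make were steady. Of 18 listed, 17 were measured, with 10 higher and 7 lower in TBC1D4-deficient arrays, 0 past the test and all 17 inside 1.5-fold. The median difference was 0.03. The smallest unadjusted p was that of Atp6v0a2, a membrane subunit of the Golgi, at 7.25 ± 0.10 in TBC1D4-deficient and 7.12 ± 0.07 in wild-type arrays (SD, n = 4 each; difference 0.13, 95% interval -0.02 to 0.29). Atp6v1a, the catalytic subunit of the head, differed by 0.08 (-0.07 to 0.22). With the identifier range these differences were 0.13 (-0.06 to 0.32) and 0.12 (-0.05 to 0.29). These genes spread over the 8 arrays by a median of 0.25 (0.10 to 0.54), against 0.54 (0.22 to 1.88) for the 9 members. Wide spread was not particular to the members. The median was 0.64 for principal cell, 0.59 for thick ascending limb, 0.63 for endothelial and 1.82 for proximal tubule genes. It was 0.67 for the further intercalated cell genes, 0.49 for macrophage and osteoclast, 0.33 for erythroid and 0.27 for DCT genes.

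**Figure D4:**
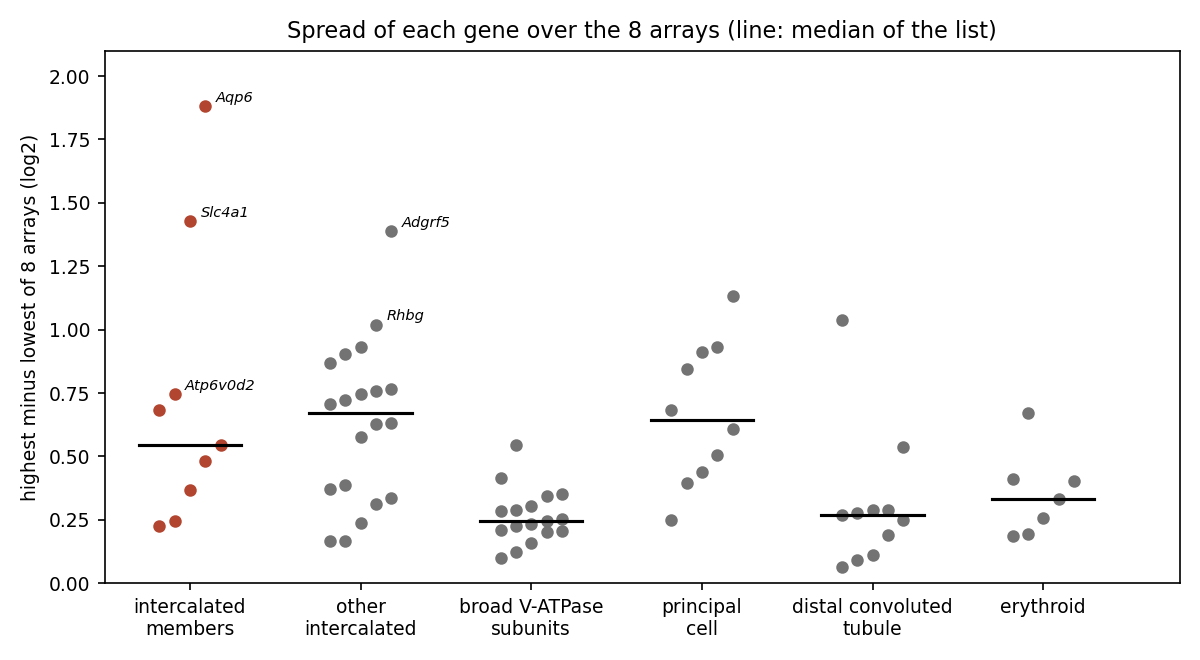
Highest minus lowest log2 value over the 8 arrays (y axis) for each gene of 6 lists (points), with the median of each list as a line. Aqp6 and Slc4a1 reach 1.88 and 1.43, while the broadly expressed V-ATPase subunits reach 0.54 at most. Principal cell genes reach 1.13 and DCT genes 1.04.

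Lists of neighbouring cells were read in the same arrays. Aqp2, the water channel that defines principal cells, stood at 5.01, 4.81, 4.57 and 5.01 in TBC1D4-deficient arrays and at 5.20, 4.50, 5.63 and 5.07 in wild-type arrays, so wild-type replicate 3 was high and TBC1D4-deficient replicate 2 was not. The mean of the 9 intercalated cell genes, each centred on its mean over 8 arrays, was -0.22, 0.27, -0.20 and -0.16 in TBC1D4-deficient replicates 1 to 4 and 0.26, -0.17, 0.32 and -0.10 in wild-type replicates 1 to 4. The same mean of the proximal tubule list was -1.02, 0.24, 0.06 and 0.11 in TBC1D4-deficient arrays and -0.57, -0.26, 0.72 and 0.73 in wild-type arrays. Wild-type replicate 1 was low in the proximal tubule mean and high in the intercalated cell mean, and wild-type replicate 4 the reverse. The genes were not scaled to equal spread, so Aqp6 and Slc4a1 weigh most in the intercalated cell mean. In wild-type replicate 1, Foxi1, Slc26a4, Atp6v1b1 and Rhcg lay below their own medians over the 8 arrays, and the other members above. The part of other cell types in the levels of these genes was not tested.

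**Figure D5:**
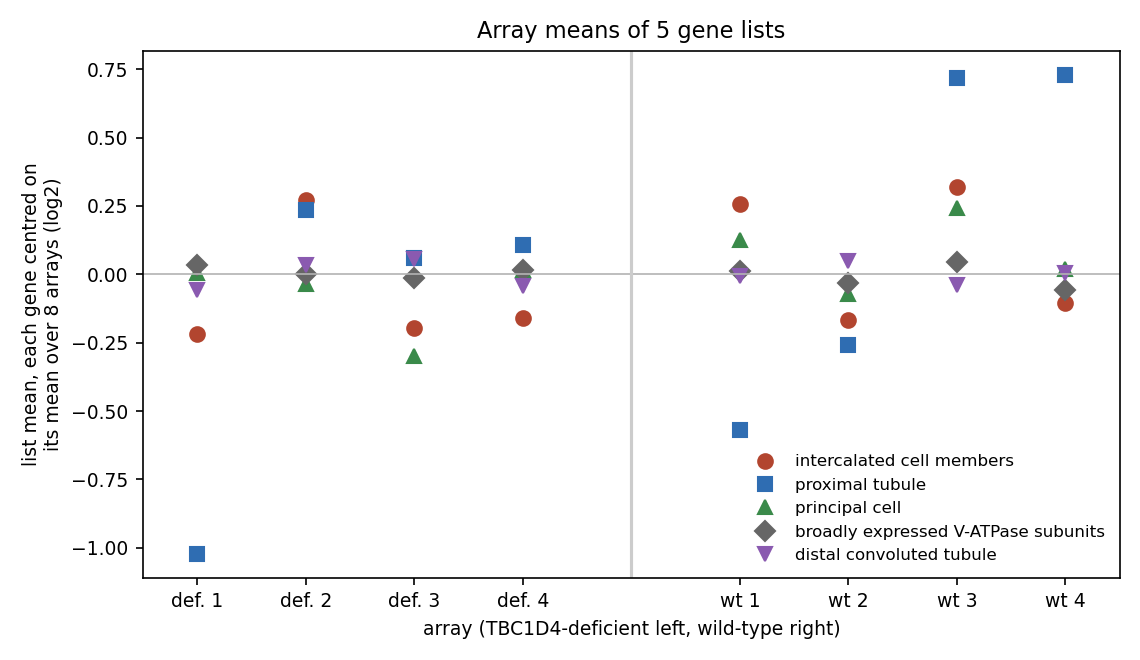
Mean of 5 gene lists in each array (y axis, log2, each gene centred on its mean over 8 arrays; x axis, TBC1D4-deficient left of wild-type). The intercalated cell mean is 0.26 to 0.32 in TBC1D4-deficient replicate 2 and wild-type replicates 1 and 3 and -0.22 to -0.10 in the other 5 arrays, while the proximal tubule mean ranges from -1.02 to 0.73 in another order.

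Among 9382 other genes above the median level, the 8 whose values over the 8 arrays were most like the members' mean had Pearson's r of 0.942 to 0.965. They were Adgrf5, Sh3bgrl2, Rhoc, Mboat2, Saal1, Parp3, Bex3 and Syngr1. The members' mean is not scaled, so Aqp6 and Slc4a1 weigh most in it. The arrays fall into clusters in the leading members, so these values only rank genes, and no p is given. Adgrf5 (r = 0.965), a receptor of type A cells, was the only one of them on the lists. Rhoc, a small GTPase of the actin cytoskeleton, stood at 6.40, 6.97, 6.34 and 6.30 in TBC1D4-deficient arrays and at 6.86, 6.43, 7.07 and 6.62 in wild-type arrays. Parp3, an enzyme of DNA repair, spread by 0.74, Mboat2, a lysophospholipid acyltransferase, by 0.39 and Syngr1, a protein of small vesicles, by 0.25. In all 8 genes the 3 highest arrays were TBC1D4-deficient replicate 2 and wild-type replicates 1 and 3, against 2.14% of all probe sets, an order that the choice by likeness favours.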

How the data were processed

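The authors deposited 1 linear intensity per probe set and sample, for 28371 probe sets. Affymetrix Power Tools is the only tool in the submitters' processing notes, and summarisation and normalization go unstated in the sources used here. Median intensities were 8.41 to 9.03 per array. No detection call was used, so a dim gene cannot be told from background. The log2 of the deposited intensities was taken with no pseudocount or filter. A limma model (3.58.1, R 4.3.3; lmFit and eBayes, 2-sided) with genotype as its only term ran over the 23039 probe sets that carry a symbol, 21158 of them with 1 symbol and 1881 with several, while 5332 had none. P-values were adjusted by Benjamini and Hochberg's method at 0.05, intervals are 95%, and the procedure was tested on simulated data. Single genes also had an exact permutation test. Members and lists were chosen with earlier results of these data known. Besides members and defining markers, the rule named up to 4 genes of each list by smallest p and the 8 most like the members' mean, of which a selection is described. Rhbg and Kit lie outside it. Chromosomes and sequences come from RefSeq (GRCm38.p6). Alternatives changed the pseudocount, normalization, filter, probe set choice, eBayes settings, weights, blocks, covariates and arrays.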

Additional observations from a re-analysis of the deposited data

Results flagged for a closer look

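With 2 genotypes and 9 genes, 18 groups of 4 arrays were examined for an array far from the other 3 (Dixon's ratio), a rule that chance meets in about 1 of 20 groups. It was met in 4, each time by TBC1D4-deficient replicate 2. The groups are the same 2 sets of arrays read in genes of which several varied together. The 4 are therefore not independent, and the count cannot be set against that rate. The share of all genes that meet the rule was not computed. That array was the highest of its genotype for Aqp6 at 6.38 (next array 4.78), for Slc4a1 at 6.87 (next 5.86) and for Atp6v1g3 at 5.69 (next 5.31). It was the lowest for Rhcg at 9.60 (next 9.77).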

How the results depend on the processing

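None of the 9 genes passed the genotype test under any of 27 alternatives (lowest limma adjusted p = 0.997), and the members' median difference ran from -0.28 to 0.08. Probe sets called by genotype numbered 1, and 13 within the higher identifier range, where 1 TBC1D4-deficient array was set against 3. The directions of the genotype differences depended on the identifier range. Within the higher range they turned for Atp6v1g3 (0.076), Slc4a1 (0.11), Slc4a9 (0.011), Foxi1 (0.40), Aqp6 (0.35), Rhcg (-0.037), Adgrf5 (0.15), Rhbg (0.011) and Kit (0.30). Within the lower range they turned for Aqp6 (0.0067), Rhbg (0.15), Car2 (0.070) and Car12 (0.020), and with the range as a covariate for Slc4a1 (0.042), Foxi1 (0.10), Aqp6 (0.18), Rhbg (0.082) and Kit (0.049). Foxi1 also turned within description numbers 9 to 12 (0.23) and with the proximal tubule mean as a covariate (0.033), and Slc26a4 within 5 to 8 (-0.017). Leaving out 1 array at a time, Foxi1 ran from -0.17 to 0.079, Slc4a1 from -0.75 to -0.27 and Aqp6 from -0.97 to -0.28. Atp6v0d2 and Atp6v1b1 kept their directions under all 27 alternatives. In the comparison of identifier ranges, leaving out 1 array at a time gave 0 to 12 probe sets and 0 to 2 of the 9 genes past the threshold (12 without wild-type replicate 2, and Slc4a1 and Aqp6 alone without wild-type replicate 4, which leaves in the higher range only the 3 arrays singled out by those genes and so is no independent test), and a Foxi1 difference of -0.042 to 0.56. After each genotype's mean was subtracted 1 of 15 correlations passed, against 4. The causes were not tested. Between same-numbered arrays, deviations from the genotype means had correlations of 0.52, -0.22, -0.04 and 0.15 for numbers 1 to 4. Only for number 1 was the same-numbered wild-type array the closest match of the TBC1D4-deficient array, so replicate numbers were not taken as pairs. With the replicate number as a block 0 of the 9 genes and 1 probe set passed, with a median of -0.13. Dim genes and 4 arrays per genotype limit what could be detected.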
